A study of Mus musculus with 9 samples.

Results

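The comparison described here is copper chelation in fibroblasts that already lack the copper importer CTR1: 3 RNA-seq libraries of Ctr1-null cells treated with the chelator bathocuproine disulfonic acid (BCS) against 3 of untreated Ctr1-null cells, 6 of the 9 libraries of the series. All cells were C57BL/6 mouse embryonic fibroblasts (MEFs) immortalized with T/t antigen, including the 3 wild type libraries that make up the rest of the series. The untreated and the BCS group shared the Ctr1 -/- genotype, in cells whose sample names call the line FloxedCtr1, and the treated group had BCS for 48 hours, at a dose that the sample labels give as 500 uM and the series record as 500 mM. No vehicle is named for the untreated cells, and the cells grew in a DMEM-based medium with modified N2, EGF and FGF-2. Whether the 3 libraries of a group came from separate cultures or clones is not stated, so the p-values measure only the spread between these libraries, which may be technical. Genes were not preselected: all 18408 genes that passed the filter on low counts, of 52661 gene rows, were compared.

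BCS is a chelator that binds cuprous copper and hardly crosses the plasma membrane, so it takes copper from the medium before cells can import it. CTR1, the product of Slc31a1, is the high-affinity importer, and in cells without it copper enters only by slower routes. Copper is needed by cytochrome c oxidase in mitochondria and by superoxide dismutase in the cytosol. The stress programmes that recur below are the integrated stress response, in which a block of translation initiation raises the transcription factor ATF4 and its amino acid genes, and the p53 response, whose best known target Cdkn1a encodes the cyclin-dependent kinase inhibitor p21. The large T antigen used to immortalize such cells is known to bind p53 and the retinoblastoma protein.

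Short stretches of promoter sequence are shown first, because the genes that the results turn on fall into families with known regulatory motifs. They are from RefSeq on the build GRCm38.p6, from windows of 250 bases before to 50 bases after a gene start, and each is written 5′ to 3′ on the strand of the gene with the motif in capitals and up to 30 bases of flank. The motif TGATGNAA, the core of the C/EBP-ATF response element bound by ATF4, was searched on both strands and occurs in 3.97% of all 32851 windows and in 2.99% of the 11972 tested genes that have a window. It occurs in 11 of 31 ATF4 target genes with a window, 35.5%, a list of genes known for this element. These matches lie before the start given in the RefSeq table and touch no exon of the GENCODE annotation.
Chac1, chr2:119351019-119351086, + strand: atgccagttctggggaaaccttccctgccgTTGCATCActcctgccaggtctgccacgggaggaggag
Atf3, chr1:191183406-191183473, - strand: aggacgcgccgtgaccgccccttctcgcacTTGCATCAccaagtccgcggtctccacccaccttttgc
Pck2, chr14:55540133-55540200, + strand: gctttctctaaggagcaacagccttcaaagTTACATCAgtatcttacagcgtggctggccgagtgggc
Pycr1, chr11:120643814-120643881, - strand: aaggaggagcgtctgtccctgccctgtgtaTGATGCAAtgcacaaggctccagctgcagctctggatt
The stretch of Atf3 lies inside the longer span that GENCODE gives this gene. In Chac1, Atf3 and Pck2 the match is on the strand opposite to the gene, so it reads as its reverse complement. The other members with a match are Asns, Vldlr, Gars, Nupr1, Slc1a4, Slc7a11 and Trib3, and the windows of Atf5, Ddit3, Sesn2 and Gdf15 hold none.

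For the p53 family the pattern CATG, any 6 bases and CATG, the paired CATG cores of a p53 response element, occurs in 0.712% of the windows and in 36 of the 11972 tested genes with one, and in 1 of 30 p53 targets with a window. That 1 is Cdkn1a, where the pattern starts 48 bases before the start in the table, which lies near the first annotated base of the gene (29090976); the pattern matches on both strands. The ER stress element, CCAAT, any 9 bases and CCACG, bound by NF-Y with ATF6, occurs in 0.119% of the windows and in 9 of 21 unfolded protein response genes with a window, which again are genes known for it, and is shown for 2 of them, both clear of annotated exons.
Cdkn1a, chr17:29090901-29090974, + strand: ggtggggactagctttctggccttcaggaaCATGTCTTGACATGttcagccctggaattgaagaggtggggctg
Dnajc3, chr14:118937797-118937875, + strand: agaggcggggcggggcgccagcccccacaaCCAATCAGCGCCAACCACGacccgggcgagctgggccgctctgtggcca
Creld2, chr15:88819490-88819568, + strand: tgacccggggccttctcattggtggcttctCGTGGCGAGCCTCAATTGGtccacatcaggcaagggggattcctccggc
In Creld2 the match is on the strand opposite to the gene. In all, 7 patterns were searched, and these 3 were picked after the sequences and values had been seen. A match describes the letters only, and no binding was measured.

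The 6 libraries held 47260223 to 53708329 counts each. Slc31a1, the targeted gene, stood at 1.40 to 3.88 CPM (counts scaled to a common library total) in the Ctr1-null libraries, 1.69 to 3.24 with BCS and 54.8 to 56.1 in wild type, as the genotype labels of these libraries have it. Ctr1-null replicate 1 stood apart within its group, by the number of genes over 2-fold apart among 13246 of at least 1 CPM on average. From the other 2 untreated libraries 333 and 478 genes separated it, compared with 169 between that pair and 46 to 167 between BCS libraries. Across groups the number ran from 108 (Ctr1-null replicate 2, BCS replicate 1) to 999 (Ctr1-null replicate 1, BCS replicate 3). Ctr1-null replicate 2 was thus closer to BCS replicates 1 and 2 (108 and 120 genes) than to its own group. Of the fibroblast markers, Vim was at 4267 to 5296 CPM and Col1a1 at 1354 to 3109 CPM over the 6 libraries, while Thy1 was nearly absent at 0.364 to 0.496 CPM.

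Few genes passed the test between the groups, with stress genes of the ATF4 and p53 programmes higher and a proliferation gene lower with BCS. Of 18408 genes, 10 passed an adjusted p of 0.05 (0.0543%; edgeR quasi-likelihood test, Benjamini-Hochberg adjustment), 7 higher (0.038%) and 3 lower (0.0163%). Atf5, Ddit3, Gdf15, Sesn2, Cdkn1a, Zcwpw1 and Ccdc13 rose, and Ndnf, Mki67 and Gm45140 fell. In all 10 genes the 3 BCS libraries lay outside the range of the 3 untreated ones. This was so for 13.4% of all genes on the higher side and for 10.9% on the lower side. An unadjusted p under 0.05 was reached by 2708 genes (14.7%; 8.34% higher and 6.37% lower), and DESeq2 called 711 (3.86%), 392 higher (2.13%) and 319 lower (1.73%), the 10 genes among them. Each of the 10 kept its direction in all 27 alternative fits, but the calls rest on the method and on having every library. In the 12 alternatives that kept all 6 libraries compared, Atf5 and Ndnf were called in 12, Zcwpw1 in 7 and Mki67 in 5. Among fits that leave out 1 of the 9 libraries, edgeR called 0 genes without BCS replicate 1 or 3 (2001 and 1660 at an unadjusted p under 0.05). It also called 0 without untreated replicate 2 or 3 (2451 and 2736). Without Ctr1-null replicate 1 it called 1 gene, and without BCS replicate 2 it called 4. Leaving out wild type replicate 1 raised the number to 183 with all 10 included, while leaving out wild type replicate 2 or 3 gave 6 and 3. Wild type libraries enter the comparison through the shared estimate of spread, and through the filter and scaling, which were recomputed in each fit.

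**Figure D1:**
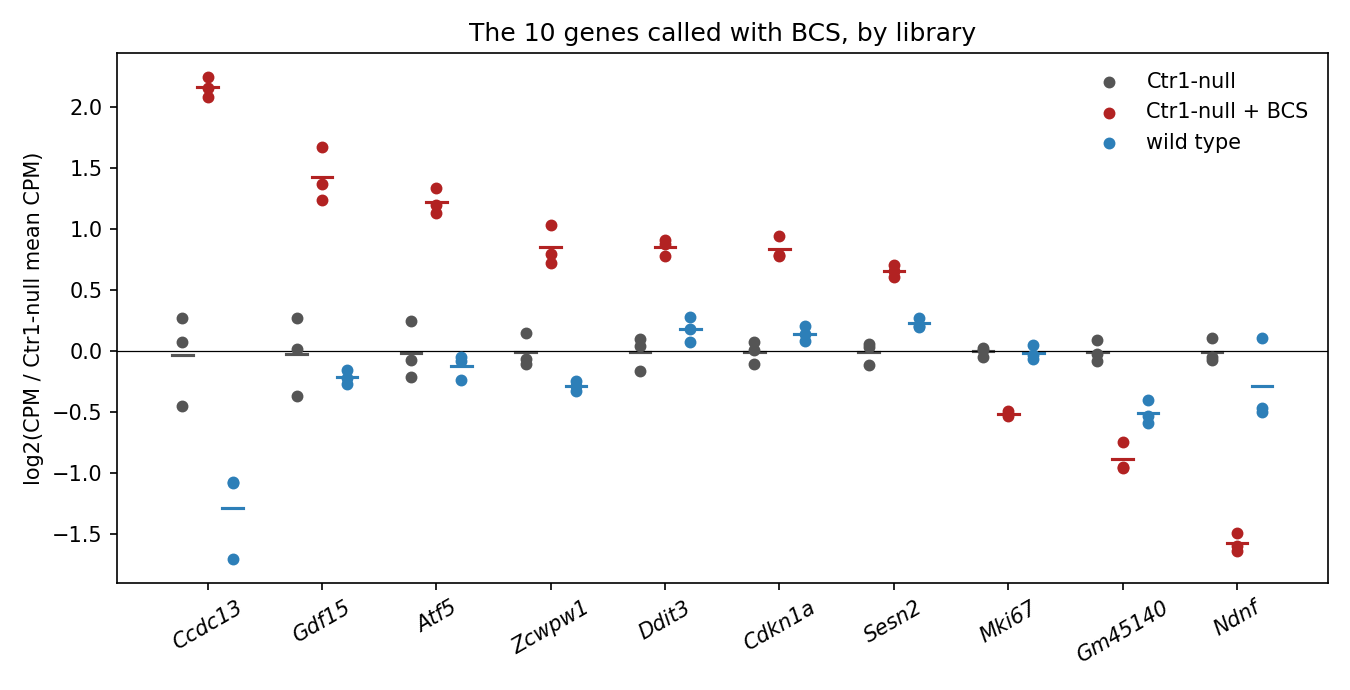
The 10 genes called with BCS. Each point is 1 library, placed by the log2 ratio of its CPM to the mean CPM of the Ctr1-null libraries (grey, Ctr1-null; red, Ctr1-null with BCS; blue, wild type), with a bar at the group's mean of the log2 ratios; in every gene the red points lie clear of the grey ones, and for Ndnf and Ccdc13 they lie furthest away.

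**Figure D2:**
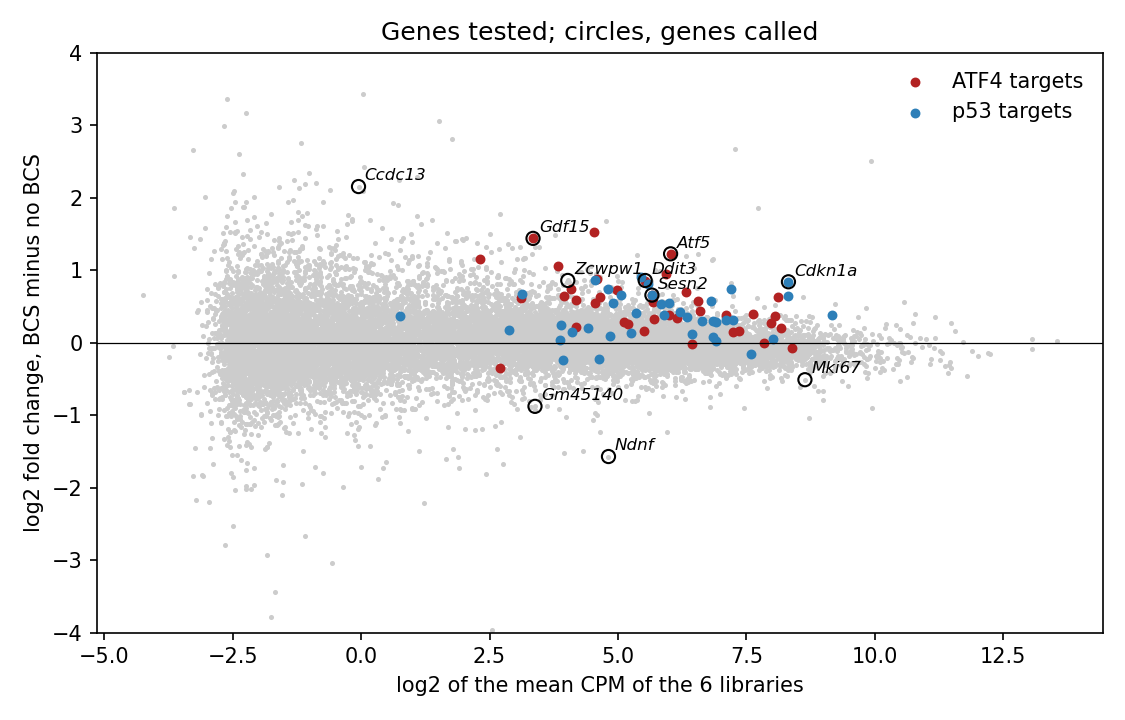
Log2 fold change with BCS (vertical axis) against the log2 mean CPM of the 6 libraries (horizontal axis) for 18397 of the 18408 genes tested; 11 genes beyond 4 on the vertical axis are not drawn. Red points are ATF4 targets, blue points p53 targets and circles the 10 genes called; both lists lie mostly above 0.

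Among ATF4 targets and ATF4 partners, the genes called were the transcription factors Atf5 and Ddit3, the growth factor Gdf15 and the stress sensor Sesn2. Atf5, a transcription factor of the mitochondrial and integrated stress responses (ENSMUSG00000038539.15, chromosome 7, 44812256 to 44816658), was at 46.3, 33.6 and 37.1 CPM in Ctr1-null replicates 1, 2 and 3 and at 89.6, 85.6 and 98.7 CPM with BCS. The lowest BCS library was thus well above the highest untreated one, and the wild type mean, at 36.0 ± 2.55 CPM (SD, n = 3), lay in the untreated range. Its log2 fold change was 1.23 ± 0.12 (SE; edgeR adjusted p = 0.0117; 0.109 at most over fits that leave out a library of the 9 and 0.255 at most over those that leave out a library of the 6). Annotated genes Nup62 and Il4i1 overlap Atf5 and the library kit does not mark strand, so their reads cannot be separated by strand; Nup62 itself gave -0.04 ± 0.09 and Il4i1 0.65 ± 0.37, with adjusted p of 0.864 and 0.459 in edgeR.

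Ddit3 encodes CHOP, a C/EBP family factor induced under prolonged stress (ENSMUSG00000025408.15, chromosome 10, 127290774 to 127296288). Its level was 29.5, 35.2 and 33.8 CPM without and 56.4, 60.4 and 62.0 CPM with BCS, against 37.3 ± 2.68 CPM (SD, n = 3) in wild type. No library of one group came near the other, and the log2 fold change was 0.86 ± 0.09 (edgeR adjusted p = 0.0148). The annotation holds another gene record also named Ddit3 at this place and Mars on the opposite strand, whose own value was 0.10 ± 0.11 (edgeR adjusted p = 0.713).

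Gdf15, a secreted cytokine of cell and mitochondrial stress (ENSMUSG00000038508.7, chromosome 8, 70629393 to 70632456, overlapping no other gene), was at 4.26, 5.56 and 6.61 CPM in untreated cells and at 14.2, 12.9 and 17.5 CPM with BCS. Every BCS library held more than any untreated or wild type library (4.73 ± 0.18 CPM in wild type, SD, n = 3), at a fold change of 2.72. On the log2 scale the change was 1.44 ± 0.17 (edgeR adjusted p = 0.0293). Sesn2, a leucine sensor that restrains mTORC1 and is a target of both ATF4 and p53, was at 36.4, 41.1 and 40.3 CPM without and 59.8, 61.9 and 64.2 CPM with BCS. The groups were tight and separate, with a log2 fold change of 0.66 ± 0.07 (edgeR adjusted p = 0.0161; ENSMUSG00000028893.8, chromosome 4, 132492032 to 132510501, with the antisense gene Gm12981 overlapping it).

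Across the ATF4 list as a whole, 4 of 39 tested members rose and 0 fell, and DESeq2 called 17 higher and 0 lower. Over all genes tested, edgeR called 0.038% higher and DESeq2 2.13%, and 13.4% lay wholly above the untreated range and 10.9% wholly below. The median log2 fold change of the members was 0.55, against 0.00 over all genes tested, and 27 members lay wholly above the untreated range and 0 wholly below it. Without Ctr1-null replicate 1 the median was 0.61 and 32 members lay above, where 18.2% of all genes did. By library, the mean of the members relative to the Ctr1-null mean was 0.19, -0.04 and -0.16 on the log2 scale for Ctr1-null replicates 1, 2 and 3, and 0.57, 0.43 and 0.62 with BCS. Ctr1-null replicate 1 was thus the highest untreated library, yet below each BCS library. In wild type the same mean was -0.06, 0.23 and 0.27.

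Some members that did not pass the edgeR test also had large differences, such as Trib3 and Chac1, with larger SE than the members called. Trib3, a pseudokinase induced by ATF4 and CHOP, was at 16.0, 11.05 and 8.45 CPM without and 33.9, 28.1 and 41.1 CPM with BCS, a log2 fold change of 1.54 ± 0.24 (edgeR adjusted p = 0.0834; DESeq2 adjusted p = 5.72e-07). Chac1, which degrades glutathione, was at 12.9, 8.62 and 6.15 CPM against 16.3, 18.2 and 23.1 CPM (1.06 ± 0.28, edgeR adjusted p = 0.164). In both genes Ctr1-null replicate 1 was the highest of its group, and the BCS libraries lay above it. Atf4 itself, mostly controlled at translation, was at 256, 210 and 192 CPM without and 338, 357 and 319 CPM with BCS (0.63 ± 0.12, edgeR adjusted p = 0.0924).

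Genes of amino acid supply were not uniform. Aldh1l2, a mitochondrial folate enzyme, had a log2 fold change of 0.95 ± 0.18, the alanine transaminase Gpt2 0.89 ± 0.18, the proline enzyme Pycr1 0.74 ± 0.21, the mitochondrial PEP carboxykinase Pck2 0.70 ± 0.16 and the neutral amino acid carrier Slc1a4 0.56 ± 0.10, all with the groups apart and edgeR adjusted p between 0.0834 and 0.19. The cationic amino acid carrier Slc7a3 was at 4.18, 2.60 and 2.46 CPM without and 7.32, 4.54 and 8.68 CPM with BCS (1.15 ± 0.27, edgeR adjusted p = 0.121). Asparagine synthetase, Asns, was at 98.5, 69.9 and 58.6 CPM against 117, 106 and 117 CPM, 0.58 ± 0.26 (edgeR adjusted p = 0.341).

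Of the serine synthesis genes, Phgdh and Psat1 gave no such difference. Phgdh was at 304, 205 and 185 CPM without and 235, 236 and 222 CPM with BCS, and Psat1 at 430, 317 and 292 CPM against 331, 347 and 306 CPM. In both, Ctr1-null replicate 1 was above every BCS library and the groups overlapped, with log2 fold changes of -0.00 ± 0.20 and -0.08 ± 0.19. Psph, the last enzyme of serine synthesis, was at 23.7, 18.1 and 15.6 CPM without and 29.0, 25.9 and 29.2 CPM with BCS, with the groups apart (0.55 ± 0.19, edgeR adjusted p = 0.244). The cystine carrier Slc7a11 (0.59 ± 0.31) and the large neutral amino acid carrier Slc7a5 (0.16 ± 0.23) also overlapped between groups, and Stc2, a secreted glycoprotein, had the lowest value of the list at -0.34 ± 0.20. The plot of list members by fold change shows this order.

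**Figure D3:**
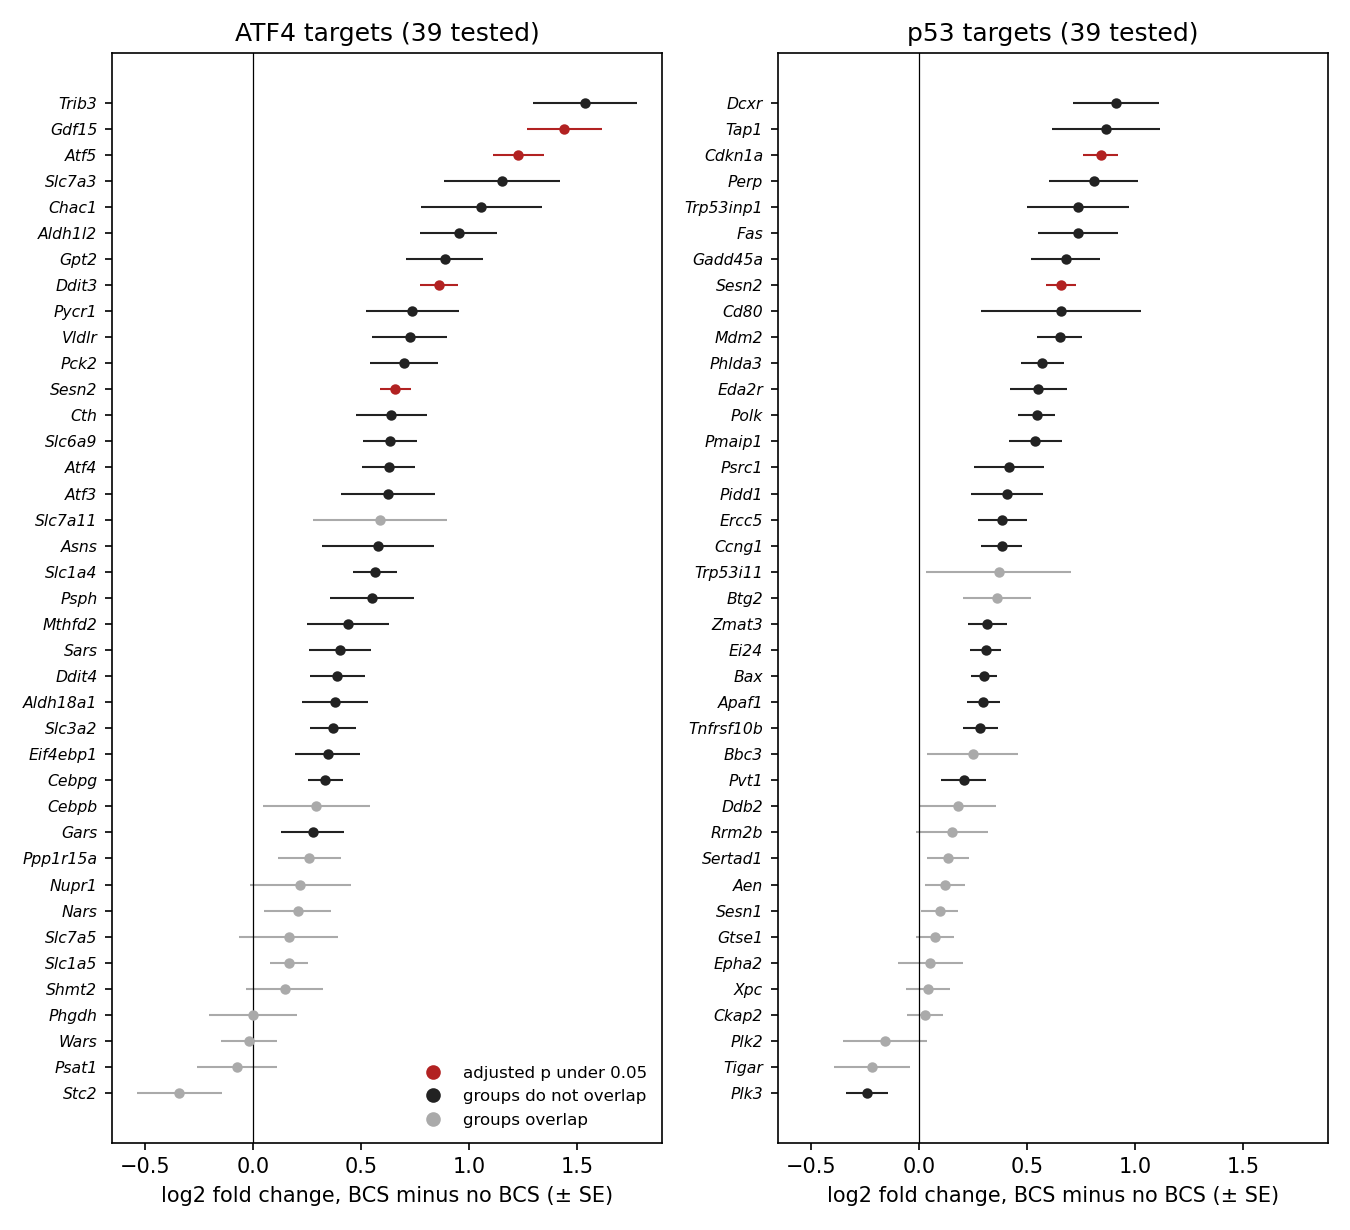
Log2 fold change with BCS for each tested member of the ATF4 and p53 target lists, with bars for ± 1 SE of the edgeR fit. Red marks members called, black members whose groups do not overlap and grey members whose groups overlap; Trib3 leads the left panel at 1.54 and Dcxr the right panel at 0.91.

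Genes of the p53 response formed the second group. Cdkn1a (ENSMUSG00000023067.13, chromosome 17, 29090976 to 29100727), whose promoter is shown above, was at 214, 231 and 242 CPM in untreated Ctr1-null cells and at 396, 395 and 441 CPM with BCS. The BCS libraries exceeded all 6 others, since wild type cells had 253 ± 11.3 CPM (SD, n = 3). The log2 fold change was 0.84 ± 0.08, a 1.79-fold rise (edgeR adjusted p = 0.0117, from 6.75e-22 in DESeq2 to 0.255 in the 6-library fit without BCS replicate 3).

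Of 39 tested p53 targets, 2 rose, Cdkn1a and Sesn2, the latter also on the ATF4 list, and 0 fell; DESeq2 called 19 higher and 0 lower. The median log2 fold change was 0.36, with 24 members wholly above and 1 wholly below the untreated range. Without Ctr1-null replicate 1 these were 0.23, 26 and 1, where 18.2% of all genes lay above and 16.3% below. With that library kept, 13.4% of all genes lay above and 10.9% below, and edgeR called 0.038% higher and DESeq2 2.13%. The list mean relative to the Ctr1-null mean was -0.13, 0.07 and 0.06 in Ctr1-null replicates 1, 2 and 3 and 0.40, 0.37 and 0.37 with BCS, with Ctr1-null replicate 1 the lowest library here.

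Mdm2, the ubiquitin ligase that limits p53, was at 226, 248 and 264 CPM without and 376, 413 and 371 CPM with BCS (0.65 ± 0.10, edgeR adjusted p = 0.0834; DESeq2 adjusted p = 4.72e-06). Phlda3, a repressor of AKT, was at 79.3, 87.7 and 103 CPM against 129, 128 and 144 CPM (0.57 ± 0.10, edgeR adjusted p = 0.0834), and the translesion polymerase Polk at 53.1, 51.4 and 52.0 CPM against 72.7, 82.4 and 73.1 CPM (0.54 ± 0.08, edgeR adjusted p = 0.0834). All of these had separate groups but missed the threshold. The death genes Bax (0.30 ± 0.06), Fas (0.74 ± 0.18) and Pmaip1 (0.54 ± 0.12) and the cyclin Ccng1 (0.38 ± 0.09) had edgeR adjusted p from 0.0952 to 0.143.

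Trp53 itself, which encodes p53, was at 198, 179 and 174 CPM without and 175, 174 and 151 CPM with BCS. The groups overlapped, at -0.14 ± 0.09 (edgeR adjusted p = 0.529). The members of the list with negative values were the polo kinases Plk3 (-0.24 ± 0.10) and Plk2 (-0.16 ± 0.19) and the fructose bisphosphatase Tigar (-0.22 ± 0.18). Dcxr and Trp53inp1 were far lower in 1 untreated library than in the others, being at 19.6 and 65.6 CPM in Ctr1-null replicate 1 and at 34.9 to 36.2 and 129 to 136 CPM in the other untreated libraries, against 51.8 to 60.6 and 159 to 211 CPM with BCS.

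Proliferation genes had mostly negative values with BCS, and 1 of them fell. Mki67, the nuclear protein Ki-67 of cycling cells (ENSMUSG00000031004.8, chromosome 7, 135689784 to 135716361), was at 479, 456 and 472 CPM in untreated cells and at 334, 329 and 325 CPM with BCS. The groups were narrow and far apart, and wild type cells were at the untreated level with 465 ± 18.8 CPM (SD, n = 3). It fell by 0.51 ± 0.07 on the log2 scale (edgeR adjusted p = 0.0460, and 4.72e-16 in DESeq2 to 0.321 over the alternatives). In bulk RNA, fewer cycling cells and less of the RNA per cycling cell cannot be told apart.

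Of 40 G2/M and mitosis genes, 1 fell, Mki67, and 0 rose; 38 had a negative value, 26 lay wholly below the untreated range and DESeq2 called 9 lower. The median was -0.22, and -0.17 without Ctr1-null replicate 1, where 26 members and 16.3% of all genes lay below. With that library kept, 10.9% of all genes lay below, and edgeR called 0.0163% lower and DESeq2 1.73%. Plk1, the main mitotic kinase of its family, was at 82.4, 75.2 and 82.1 CPM without and 62.4, 60.6 and 58.1 CPM with BCS (-0.40 ± 0.07, edgeR adjusted p = 0.0834), and the cytokinesis genes Anln and Kif23 had -0.46 ± 0.10 and -0.45 ± 0.10. Cdk1, at -0.11 ± 0.15, Ube2c, at 0.05 ± 0.12, and Ckap2, at 0.03 ± 0.08, overlapped between groups, so mitotic genes did not all differ alike.

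The S phase list had 0 of 40 members called by edgeR (17 lower and 0 higher at an unadjusted p under 0.05, 5 lower by DESeq2, 0 by limma-voom), a median of -0.22 and 19 members wholly below the untreated range. Without Ctr1-null replicate 1 the median was -0.16, with 19 below, beside 16.3% of all genes. Over all libraries, 10.9% of all genes lay below, 6.37% were lower at an edgeR unadjusted p under 0.05 and DESeq2 called 1.73% lower. Cyclin E1, Ccne1, was at 41.1, 32.9 and 31.9 CPM without and 25.0, 26.1 and 22.7 CPM with BCS (-0.52 ± 0.11, edgeR adjusted p = 0.109), the replicative helicase subunit Mcm7 at -0.34 ± 0.08 and the histone chaperone Chaf1b at -0.45 ± 0.10. Rb1, which encodes the retinoblastoma protein, had a positive value of 0.40 ± 0.10 (edgeR adjusted p = 0.128). The list means by library were lowest in BCS replicate 3 for both lists, -0.39 for S phase and -0.32 for G2/M, and highest in Ctr1-null replicate 1, 0.13 and 0.09.

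**Figure D4:**
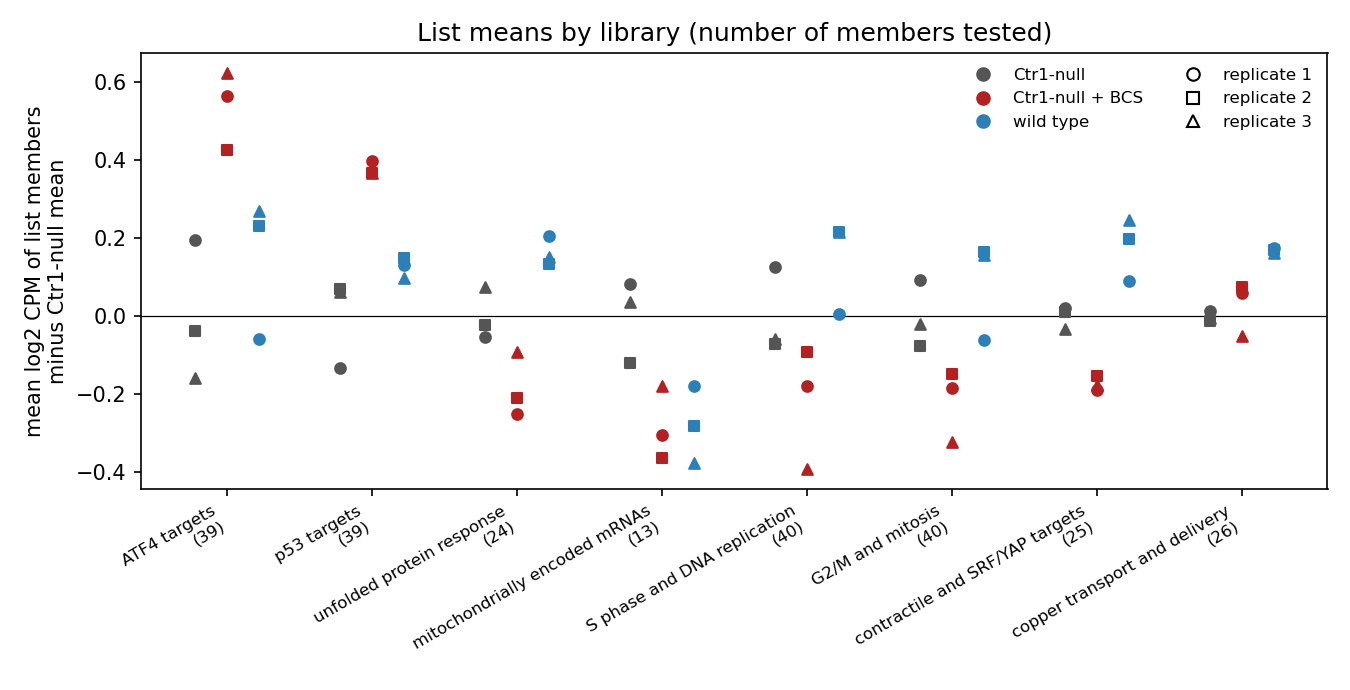
Mean log2 CPM of the tested members of 8 lists in each library, relative to the mean of the Ctr1-null libraries (vertical axis); colour marks the group and symbol shape the replicate number. The BCS libraries (red) sit above the untreated ones for ATF4 and p53 targets, at 0.43 to 0.62 and 0.37 to 0.40, and below them for both cell cycle lists.

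Chaperone genes of the endoplasmic reticulum (ER) mostly had negative values, unlike Ddit3 and Atf4. Of 24 unfolded protein response genes, edgeR called 0 (11 lower and 1 higher at an unadjusted p under 0.05), limma-voom called 0 and DESeq2 called 7 lower and 1 higher. Their median was -0.21, and 10 lay wholly below and 2 wholly above the untreated range, beside 10.9% and 13.4% of all genes. Without Ctr1-null replicate 1 the median was -0.23 with 14 below, where 16.3% of all genes were. Of all genes, DESeq2 called 1.73% lower and 2.13% higher. At an edgeR unadjusted p under 0.05, 6.37% of all genes were lower and 8.34% higher. Hspa5, which encodes BiP, the main chaperone of the compartment, was at 1090, 1013 and 1119 CPM without and 756, 757 and 905 CPM with BCS (-0.41 ± 0.09, edgeR adjusted p = 0.113). Hsp90b1 gave -0.36 ± 0.09, the co-chaperones Dnajc3 and Sdf2l1 -0.34 ± 0.07 and -0.63 ± 0.11, Creld2 -0.35 ± 0.11 and Derl3 -0.52 ± 0.28, all with separate groups.

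Carriers of the ER stress element were not all apart. Calr (-0.21 ± 0.09), Canx (-0.04 ± 0.07), Pdia6 (-0.32 ± 0.11) and Syvn1 (-0.13 ± 0.09) have the element and overlapped between groups. Herpud1, an adaptor of ER-associated degradation that is also known as an ATF4 target, was at 35.0, 35.5 and 35.8 CPM without and 49.2, 46.9 and 57.0 CPM with BCS, with a value of 0.53 ± 0.11 (edgeR adjusted p = 0.0952). Xbp1, a transcription factor of this response activated by splicing that gene counts do not show, overlapped between groups at -0.08 ± 0.18.

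Mitochondrial DNA encodes 13 mRNAs, all for subunits of the respiratory chain. edgeR called 0 of them (9 lower at an unadjusted p under 0.05), limma-voom called 0 and DESeq2 called 6 lower. The median was -0.30, with 8 wholly below the untreated range, beside 10.9% of all genes. It was -0.24 with 8 below when Ctr1-null replicate 1 was left out, a setting in which 16.3% of all genes lay below. DESeq2 called 1.73% of all genes lower, and 6.37% were lower at an edgeR unadjusted p under 0.05. By library, the list mean relative to the Ctr1-null mean was -0.31, -0.36 and -0.18 with BCS. In wild type it was in a like range, at -0.18, -0.28 and -0.38. mt-Cytb, the cytochrome b of complex III, was at 4362, 3905 and 4179 CPM without and 3226, 2924 and 2879 CPM with BCS (-0.46 ± 0.09, edgeR adjusted p = 0.0924). Its groups were separate, and wild type, at 3399 ± 159 CPM (SD, n = 3), also lay below the untreated level. The complex I genes mt-Nd2 and mt-Nd1, at -0.48 ± 0.10 and -0.42 ± 0.12, also had separate groups. In contrast mt-Co1, the copper-containing subunit of cytochrome c oxidase, was at 11638, 11245 and 12657 CPM without and 11781, 10019 and 14392 CPM with BCS (0.03 ± 0.14). mt-Co2, the other copper-containing subunit, had 0.01 ± 0.11 and mt-Co3, which holds no copper, -0.18 ± 0.11, so the 3 oxidase mRNAs overlapped between groups. Mitochondrial transcripts took 3.85 to 4.32% of counts in untreated and 3.38 to 4.16% in BCS libraries, and the part of this share in the values above was not tested.

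**Figure D5:**
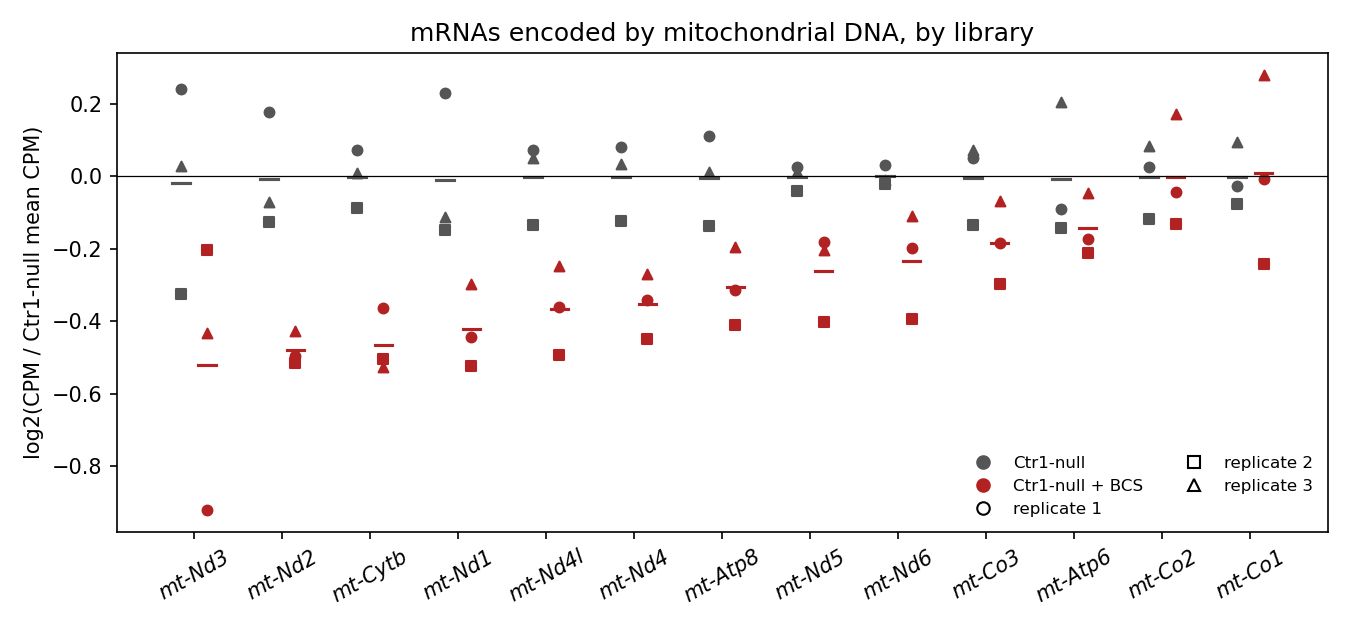
Level of each of the 13 mitochondrially encoded mRNAs by library, as the log2 ratio of its CPM to the Ctr1-null mean (grey, Ctr1-null; red, with BCS; symbols give the replicate number, bars the mean of a group). The red points lie below the grey ones for mt-Nd2, mt-Cytb and mt-Nd1 and among them for mt-Co1 and mt-Co2.

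Nuclear genes of complex I mostly had small positive values. edgeR called 0 of 36 subunits (9 higher at an unadjusted p under 0.05; limma-voom 0, DESeq2 1 higher), with a median of 0.09 and 15 wholly above the untreated range. Without Ctr1-null replicate 1 the median was 0.13 and 24 of 36, 66.7%, lay above, beside 18.2% of all genes. Over all libraries, 13.4% of all genes lay above and 8.34% were higher at an edgeR unadjusted p under 0.05. DESeq2 called 2.13% of all genes higher. Ndufa13 had 0.24 ± 0.07 (edgeR adjusted p = 0.191). For complex IV subunits and assembly factors edgeR, DESeq2 and limma-voom called 0 of 38, and the median was 0.08. At an edgeR unadjusted p under 0.05, 3 were lower, beside 6.37% of all genes. Of the 38, 7 lay wholly above and 1 wholly below the untreated range, beside 13.4% and 10.9% of all genes.

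The remaining genes called belong to none of these programmes. Ndnf, a secreted neurotrophic factor (ENSMUSG00000049001.5, chromosome 6, 65671590 to 65712326, overlapping no other gene), was at 45.4, 40.2 and 40.8 CPM without and 13.98, 15.05 and 13.6 CPM with BCS. It fell by 1.57 ± 0.16 on the log2 scale to 0.337 of the untreated level (edgeR adjusted p = 0.0117). BCS libraries were below all others, as wild type was at 35.3 ± 8.87 CPM (SD, n = 3). Ndnf was the gene called in all 6 fits of the 6 libraries that left out 1 of them, with edgeR adjusted p from 0.00244 to 0.0436. In the fits that left out 1 of the 9 libraries it was called in 3 of 9, with edgeR adjusted p up to 0.109.

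Ccdc13, a coiled-coil protein of centriolar satellites (ENSMUSG00000079235.10, chromosome 9, 121797627 to 121839461), was barely expressed. It had 13, 22 and 18 counts without and 82, 83 and 84 counts with BCS, or 0.258 to 0.426 and 1.49 to 1.67 CPM. The counts of the groups were far apart, a log2 fold change of 2.16 ± 0.24 (edgeR adjusted p = 0.0172), with an antisense gene, Gm17163, overlapping it. Zcwpw1, a reader of histone methylation known from meiosis (ENSMUSG00000037108.13, chromosome 5, 137787798 to 137822621, overlapping Pilra), rose from 10.8, 12.8 and 11.1 CPM to 19.1, 20.1 and 23.7 CPM (0.86 ± 0.11, edgeR adjusted p = 0.0428).

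Gm45140, a predicted gene on chromosome 6 at 87788861 to 87835795, was at 12.8, 13.3 and 14.4 CPM without and 7.01, 6.99 and 8.11 CPM with BCS. It fell by 0.88 ± 0.11 on the log2 scale (edgeR adjusted p = 0.0329, 0.362 with the authors' factors). It overlaps Rab43 and Isy1 on the same strand, so reads of shared sequence cannot be assigned by position alone. Rab43, a small GTPase, was at 24.9, 28.1 and 23.5 CPM without and 37.3, 33.0 and 37.0 CPM with BCS (0.49 ± 0.10, edgeR adjusted p = 0.0924), and Isy1, a splicing factor, overlapped between groups at -0.07 ± 0.16.

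No gene of copper handling passed the test, which 0.0543% of all genes tested did. edgeR called 0 of 26 tested members of the copper transport and delivery list, of 29 in all (3 higher and 2 lower at an unadjusted p under 0.05; DESeq2 1 in each direction; limma-voom 0), with a median of 0.03, 5 members wholly above and 1 wholly below the untreated range. Without Ctr1-null replicate 1 the median was 0.087, with 7 above (26.9%) and 1 below (3.85%). Over all genes tested, 13.4% lay above and 10.9% below, and 18.2% and 16.3% without that library. At an edgeR unadjusted p under 0.05, 8.34% of all genes were higher and 6.37% lower, and DESeq2 called 2.13% higher and 1.73% lower. Slc31a1 was at 2.54, 3.88 and 1.40 CPM without and 3.24, 2.54 and 1.69 CPM with BCS (-0.07 ± 0.32). Ccs, the copper chaperone for superoxide dismutase, whose protein is known to accumulate when copper is scarce, was at 22.5, 25.5 and 23.1 CPM against 30.4, 29.9 and 29.8 CPM (0.34 ± 0.12, edgeR adjusted p = 0.230). All BCS libraries were above all untreated ones, although wild type, at 22.8 to 31.4 CPM, spanned both.

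Metallothioneins, which bind copper and zinc, overlapped between groups. Mt1 was at 69.6, 76.1 and 65.5 CPM without and 74.9, 60.8 and 47.4 CPM with BCS (-0.21 ± 0.15), and Mt2 at 39.5, 37.3 and 31.0 CPM against 34.1, 26.4 and 14.4 CPM (-0.52 ± 0.25), with BCS replicate 3 the lowest of the 6 in both. The exporter Atp7a (-0.02 ± 0.08), the chaperone Atox1 (0.13 ± 0.08), the oxidase chaperones Cox17 (0.14 ± 0.07), Sco1 (0.02 ± 0.11) and Cox11 (-0.03 ± 0.12), the metal-responsive factor Mtf1 (0.01 ± 0.09) and the mitochondrial carrier Slc25a3 (0.01 ± 0.13) had values from -0.03 to 0.14. Sco2, another oxidase chaperone, was at 8.70, 5.68 and 7.60 CPM without and 4.50, 5.68 and 4.64 CPM with BCS, and the groups just overlapped (-0.57 ± 0.18, edgeR adjusted p = 0.209). The largest values of the list were those of Cutal, 1.03 ± 0.29, and the channel Aqp1, -0.66 ± 0.22, with edgeR adjusted p of 0.182 and 0.217.

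Enzymes that use copper gave a like picture. Of 21 tested, 2 lay wholly above and 2 wholly below the untreated range, beside 13.4% and 10.9% of all genes. Over all genes, edgeR called 0.0543%, and DESeq2 called 1.73% lower. At an edgeR unadjusted p under 0.05, 8.34% of all genes were higher and 6.37% lower. edgeR called 0 of 21 (1 higher and 2 lower at an unadjusted p under 0.05; DESeq2 2 lower; limma-voom 0). Those with the groups apart were Cp, the ferroxidase ceruloplasmin, at 2.52, 2.83 and 2.60 CPM without and 1.53, 1.08 and 0.797 CPM with BCS (-1.22 ± 0.31, edgeR adjusted p = 0.150), extracellular superoxide dismutase Sod3 (-0.71 ± 0.19, edgeR adjusted p = 0.164), Ulk2 (0.24 ± 0.14) and lysyl oxidase, Lox. Lox was at 801, 1548 and 1359 CPM without and 1654, 1551 and 2256 CPM with BCS (0.56 ± 0.22, edgeR adjusted p = 0.292), with Ctr1-null replicate 1 far below the other 5 libraries. Sod1 (-0.10 ± 0.19) and the copper-binding kinases Map2k1 (0.06 ± 0.08), Map2k2 (0.08 ± 0.12) and Ulk1 (0.15 ± 0.10) overlapped between groups.

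Among the 42 pathway lists, 38 held no gene called by edgeR. For the counts that follow, 13.4% of all genes tested lay wholly above and 10.9% wholly below the untreated range. Without Ctr1-null replicate 1 these shares were 18.2% and 16.3%. At an edgeR unadjusted p under 0.05, 8.34% of all genes were higher and 6.37% lower. edgeR called 0.0543% of all genes, and DESeq2 called 1.73% lower. Contractile genes and targets of SRF and YAP had a median of -0.18 and 10 of 25 wholly below the untreated range (edgeR 0 called, 7 lower and 1 higher at an unadjusted p under 0.05; DESeq2 4 lower; limma-voom 0), with Tpm1, a tropomyosin, at 1271, 1264 and 1207 CPM without and 930, 972 and 918 CPM with BCS (-0.41 ± 0.10, edgeR adjusted p = 0.127). Nucleolar ribosome biogenesis genes had 40 of 40 negative values and a median of -0.21, but 3 lay wholly below the untreated range, and the median was -0.07 without Ctr1-null replicate 1. For cholesterol synthesis the median was 0.22, and 0.07 without that library. Fatty acid oxidation and PPAR targets had a median of 0.14 and 7 of 26 wholly above (0.080 and 8 without Ctr1-null replicate 1), among them the thioesterase Acot2 at 6.42, 5.74 and 5.91 CPM without and 14.7, 10.4 and 17.4 CPM with BCS (1.23 ± 0.18, edgeR adjusted p = 0.0722) and the long-chain dehydrogenase Acadvl (0.35 ± 0.06, edgeR adjusted p = 0.0834).

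Markers of other cell types gave 0 calls by edgeR among 49 tested members of 9 lists, fibroblast markers included. At an edgeR unadjusted p under 0.05 there were 8, beside 14.7% of all genes. DESeq2 called 1 and limma-voom 0. Over all genes tested, edgeR called 0.0543% and DESeq2 3.86%. The summed level of the fibroblast markers was 15469 to 18493 CPM in untreated and 16372 to 19857 CPM in BCS libraries, and that of macrophage and blood markers 16.2 to 22.2 and 18.9 to 26.5 CPM. The neural progenitor and glia markers summed to 226 to 263 CPM in untreated and to 183 to 208 CPM in BCS libraries, with no overlap, while the median log2 fold change of the 9 tested was 0.08. Bone and cartilage markers had a median of 0.57 over 6 tested, with sums of 130.5 to 216 CPM and 163 to 169 CPM. The sums of the adipocyte, epithelial, endothelial, muscle and germ cell lists also overlapped between groups. The part of any of these levels in the results above was not tested.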

How the data were processed

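RNA-seq libraries of total RNA (TruSeq RNA kit, per the labels' protocols) from 9 fibroblast samples were used, 3 in each of 3 groups. Per the submitters' processing notes the build was GRCm38 and the tools were STAR, Salmon, FastQC and DESeq2, with no version or role given. The main deposited table gives an estimated count for each gene and library, in whole numbers without normalization. A further table deposited by the authors holds a scaled signal, in which each count has been divided by its own factor, of unstated origin; it served only for an alternative. Symbols came from GENCODE M21 for 52566 of 52661 identifiers.

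Counts were rounded, filtered (filterByExpr, minimum count 10, minimum total 15), TMM-scaled and fitted over the 9 libraries by the quasi-likelihood method of edgeR 4.0.16 in R 4.3.3 (residual degrees of freedom 6, common biological coefficient of variation 0.169). Tests are 2-sided, adjusted by Benjamini and Hochberg over 18408 genes and called under 0.05. The SE was taken from the fold change and its F statistic. CPM use TMM-scaled totals, and a count of 0 allows 3 counts, 0.0546 to 0.0620 CPM in the 6 libraries, for counting error only. The fits were also run on simulated counts with planted changes, in which no library was made to stand apart. That run cannot show how the calls depend on single libraries. Wild type libraries are given as levels, without a test. Same-numbered BCS and Ctr1-null libraries did not all deviate together, with correlations over genes of 0.14, -0.13 and 0.51 for replicates 1, 2 and 3. Libraries of different number gave -0.49 to 0.43, and the numbers were not used as pairs in the main fit.

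The comparison, the 42 pathway and 9 cell type lists and the naming rule were chosen with earlier results of these data known; lists are described by counts and medians, without a test. The rule named Slc31a1, Ndnf, Ccdc13 and Zcwpw1, the 12 genes of largest and of smallest fold change and the 6 of smallest p in each direction among genes called with at least 5 CPM and separate groups (leaving out predicted genes), the copper transport list, and up to 3 called members per direction of each other list or the member of smallest p. Other genes with values were named after their values were seen. Alternatives were other scaling factors, no filter or a stricter filter (1 CPM in 3 samples), DESeq2 1.42.0, limma-voom (limma 3.58.1), a robust fit, the authors' factors, the 6 libraries alone, a replicate block and leaving out each library; leaving out each of the 6 libraries in the 6-library fit, and the list counts without Ctr1-null replicate 1, were added after the data were seen. Promoter windows matched 11972 tested genes by symbol. Figures used matplotlib 3.10.9 in Python 3.11.15.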

Additional observations from a re-analysis of the deposited data

How the results depend on the processing

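The number of genes called was 7 to 12 with other scaling factors, a stricter filter, limma-voom, a robust fit, the authors' factors or the 6 libraries alone, against 10 in the report. It was 114 without a filter and 711 in DESeq2, both with all 10 genes included. With a replicate block it was 2 over 9 libraries and 55 over the 6 libraries. Same-numbered libraries deviated together in replicate 3 (correlation 0.51) but hardly in replicate 1 (0.14) and not in replicate 2 (-0.13). Leaving out 1 library gave 0 to 183 genes over the 9-library fits and 1 to 38 over the 6-library fits, 38 without Ctr1-null replicate 1 and 1 without any other; the cause was not tested. Among single genes, 12 values changed sign by 1 SE or more, none of a gene called. Leaving out 1 of the 9 libraries moved Slc31a1 from -0.37 to 0.34, Psat1 from -0.19 to 0.11, Phgdh from -0.14 to 0.25, Nup62 from -0.10 to 0.063, Xbp1 from -0.25 to 0.10 and mt-Co1 from -0.12 to 0.14. In the 6-library fits these ranges were -0.37 to 0.33, -0.19 to 0.11, -0.14 to 0.24, -0.10 to 0.061, -0.25 to 0.11 and -0.12 to 0.14 in the same order. Mtf1 was -0.10 with the authors' factors. Of the other values for single genes, 3927 kept direction and side of the threshold, 95 stayed uncalled and changed sign by under 1 SE, 136 lost the call and 134 gained it. Depth limits Ccdc13 most among the genes called, with 13 to 84 counts a library.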

Other observations

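Several genes known from the circadian clock were picked after their values were seen, and none of those named here passed the edgeR threshold. Dbp, a transcription factor driven directly by the clock, was at 4.46, 6.59 and 5.37 CPM in Ctr1-null replicates 1, 2 and 3 and at 12.9, 13.0 and 20.3 CPM with BCS, a log2 fold change of 1.49 ± 0.22 (edgeR adjusted p = 0.0722; DESeq2 adjusted p = 1.00e-07). Its relative Tef was at 77.6, 113 and 92.8 CPM without and 145, 135 and 147 CPM with BCS (0.60 ± 0.13, edgeR adjusted p = 0.109). Hlf, the remaining member of that family, had the opposite sign, at 7.75, 7.13 and 4.56 CPM without and 3.44, 3.10 and 1.85 CPM with BCS (-1.21 ± 0.25, edgeR adjusted p = 0.0968). Per3 (0.72 ± 0.25) lay above the untreated range and Nr1d1 (0.49 ± 0.17) overlapped it. The core clock genes Arntl and Clock both had -0.04, with SE of 0.14 and 0.11. The hour of harvest is not given in the labels.

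Kansl2-ps, a pseudogene of Kansl2 (ENSMUSG00000097530.1, chromosome 7, 72672818 to 72674278), had 0 counts in all 3 Ctr1-null libraries and 33, 78 and 32 counts with BCS, while wild type libraries were at 0.0208 CPM or 0. It missed the edgeR threshold (adjusted p = 0.0564), and Kansl2, whose near-identical reads could be divided between both, overlapped between groups at -0.12 ± 0.10.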
